A study of Homo sapiens with 9 samples.

Results

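The genes described here are 10 markers of intestinal crypt stem cells and of colon cancer cells with high WNT activity, namely LGR5, RNF43, ZNRF3, ASCL2, PROX1, SOX9, SMOC2, OLFM4, CD44 and PROM1. They were chosen by name, with earlier results of these data known, and make up 10 of the 63677 genes listed in the count files. Poly(A) RNA of 3 human colon cancer cell lines was sequenced, with 3 libraries per line and 9 libraries in all. SW480, the parental line, comes from a colon adenocarcinoma and had received neither a vector nor drug selection. SW480-B is 1 clone of SW480 cells that had been nucleofected with pcDNA3-BASP1, in which the CMV promoter drives BASP1, and selected with G418. SW480-gRNA-B-all was made in steps, with a lentiviral MS2-P65-HSF1 activator under hygromycin, then dCas9-VP64-GFP with cloning of single GFP-positive cells, then pooled sgRNAs against the BASP1 promoter under puromycin. The 9 libraries include no empty-vector line and no line with the activator but without sgRNAs. BASP1, the clone and the selection therefore cannot be told apart in either comparison with SW480. The labels give a serum-containing Leibovitz medium for SW480 and name no other medium for its derivatives.

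The base of the intestinal crypt holds dividing stem cells that carry LGR5, a receptor for R-spondins. WNT ligands keep these cells in the stem cell state by holding β-catenin in the nucleus, where it acts with TCF/LEF factors on genes such as ASCL2, RNF43, ZNRF3, SOX9 and CD44. RNF43 and ZNRF3 in turn remove the WNT receptors from the cell surface, a brake that R-spondins bound to LGR5 relieve. In SW480 cells APC is truncated and β-catenin signalling is active without a WNT ligand. PROX1, best known as the factor that sets lymphatic endothelial identity, is absent from most of the normal colon epithelium and is switched on in many colorectal tumours with active WNT signalling.

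In the SW480-gRNA-B-all line, ASCL2, PROX1, LGR5 and ZNRF3 fell against the parental line, while SOX9 and RNF43 passed no threshold. Only ASCL2 kept its call when replicates 2 and 3 of SW480-gRNA-B-all, which were unusually alike, were summed. The same was true when SW480 replicate 2, SW480-gRNA-B-all replicate 2 or SW480-gRNA-B-all replicate 3 was left out. Without SW480-gRNA-B-all replicate 1, only ASCL2 and PROX1 kept their calls. In the SW480-B line the LGR5 transcript was close to the detection limit, and ASCL2 and PROX1 lay between the other lines. SMOC2, OLFM4 and PROM1 were at or close to the detection limit in every line. The plot of the 10 genes by library shows these levels.

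**Figure D1:**
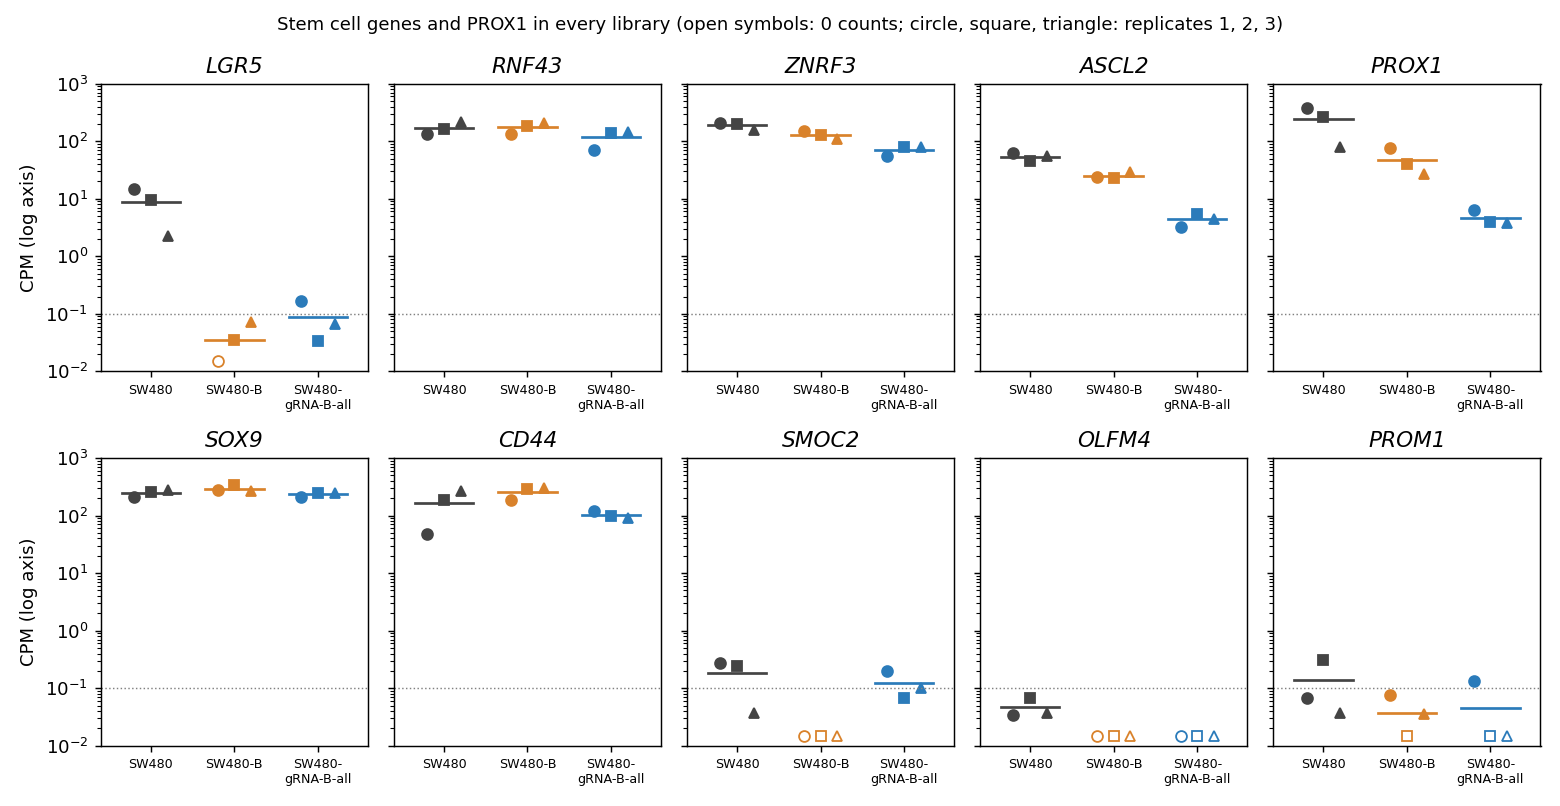
Level of each of the 10 genes in each of the 9 libraries, in CPM (counts scaled to library size) on a log axis. Circles, squares and triangles are replicates 1, 2 and 3, horizontal bars are the means of a line (n = 3), open symbols mark libraries with 0 counts drawn at the foot of the panel, and the dotted line is a guide at 0.1 CPM, near the level of 3 counts. ASCL2 and PROX1 descend from SW480 through SW480-B to SW480-gRNA-B-all, LGR5 lies between 0 and 0.169 CPM in both BASP1-expressing lines, and SOX9 stays between 212 and 335 CPM.

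Levels are given as CPM, which are counts scaled to library size. Depth was 25238831 to 29355669 counts on genes per library, and a count of 0 allows a level of up to 0.1 to 0.116 CPM (3 counts). This limit and the intervals cover counting error only. BASP1 was at 0.691 to 11.9 CPM in SW480, 250.3 to 268 CPM in SW480-B and 167 to 303 CPM in SW480-gRNA-B-all. The libraries of replicates 2 and 3 of SW480-gRNA-B-all stood apart by their likeness, since 0% of 14023 genes differed more than 2-fold between them, against 6.38% to 25.3% in the other pairs of replicates within a line. They still differed by more than sampling noise (chi-square per degree of freedom 3.31, against 91 to 343 in the other pairs) and were kept as separate libraries, and calls were also made with them summed. The label of a colon epithelium line was checked on 6 markers (EPCAM, KRT8, KRT18, CDH1, VIL1 and CDX2), all at 1 CPM or more in each line. Their summed level was 7564 to 9526 CPM in SW480, 6202 to 10228 CPM in SW480-B and 5783 to 7295 CPM in SW480-gRNA-B-all. Of these markers CDX2, a factor of intestinal identity, fell in the SW480-gRNA-B-all line relative to SW480 (log2 fold change -3.28, SE 0.38, edgeR adjusted p = 0.009, or 0.0502 with replicates 2 and 3 of the line summed), and VIL1, the brush border protein villin, fell in both BASP1-expressing lines. Markers of fibroblasts summed to 2.26 to 10.7 CPM and those of endothelium to 0.689 to 4.34 CPM, COL3A1 was at 0 in every library, and leukocyte markers summed to 0.919 CPM at most. COL1A1, a collagen gene of fibroblasts, was at 3.51, 4.2 and 4.36 CPM in SW480 and at 7.89, 9.45 and 10.7 CPM in SW480-gRNA-B-all (log2 fold change 1.21, SE 0.25, edgeR adjusted p = 0.036, or 0.16 with the 2 like libraries summed), and its part in the results was not tested.

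Promoter sequences are shown for CD44, the only gene with a called difference that had an entry in the RefSeq promoter table (GRCh38.p14), and for OLFM4, which carried a TCF/LEF heptamer and was at the detection limit. The table holds 9 promoters of 5 of the 10 genes (SMOC2, OLFM4, RNF43, CD44 and PROM1), and LGR5, ASCL2, PROX1, ZNRF3 and SOX9 have no entry. The letters CTTTGAA and CTTTGAT, with CTTTGTA and CTTTGTT, were searched on both strands from 250 bases before to 50 bases after each start. The 250 bases before the start are printed, at chr11:35138921-35139170 (plus strand) for CD44 and at chr13:53028563-53028812 (plus strand) for OLFM4, with a heptamer in capitals.
CD44: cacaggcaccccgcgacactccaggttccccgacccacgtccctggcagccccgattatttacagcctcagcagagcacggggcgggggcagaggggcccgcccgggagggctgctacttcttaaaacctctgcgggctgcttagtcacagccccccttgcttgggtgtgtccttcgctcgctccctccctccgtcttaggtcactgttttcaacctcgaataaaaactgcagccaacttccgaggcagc
OLFM4: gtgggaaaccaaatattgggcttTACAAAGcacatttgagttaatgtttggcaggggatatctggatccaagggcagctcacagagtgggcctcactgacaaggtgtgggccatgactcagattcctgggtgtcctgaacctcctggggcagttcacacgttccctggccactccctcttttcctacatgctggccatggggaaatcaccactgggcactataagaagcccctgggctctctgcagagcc
The CD44 window held none of these heptamers, and its GC content was 62.4%, against 54% in OLFM4. The OLFM4 window held CTTTGTA on the opposite strand, with its first base at position -227 from the start. In all, 2 of the 9 promoters held a heptamer, the other being 1 of the 4 promoters of PROM1 with CTTTGAT at position -179, beside 13.8% of 35116 promoters in the table. The E-box CAGCTG was in 0 of the 9 promoters and in 17.9% of all. A heptamer found by its letters is a description of the window and not a measured binding site.

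LGR5, the R-spondin receptor (ENSG00000139292, GRCh37 chr12:71833578-71980090, plus strand), was at 14.9, 9.58 and 2.29 CPM in replicates 1, 2 and 3 of SW480. It was at 0, 0.0356 and 0.0707 CPM in SW480-B, which are 0, 1 and 2 counts, and at 0.169, 0.0334 and 0.0668 CPM in SW480-gRNA-B-all, which are 5, 1 and 2 counts. Every SW480 library was higher than every library of the other lines, and among the SW480 libraries the highest was 6.51 times the lowest. In RNA of whole cultures, fewer cells with the transcript and less transcript per cell cannot be told apart. Over the pooled counts, SW480 had 246 times the LGR5 level of SW480-B (exact 95% counting interval 84 to 1197) and 95.7 times that of SW480-gRNA-B-all (48.3 to 223). SW480-gRNA-B-all had 2.57 times the level of SW480-B (0.618 to 15.1), a difference that was not detectable at this depth.

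In the test over all genes, LGR5 fell by 7.74 on the log2 scale in SW480-B (SE 1.02, edgeR quasi-likelihood test with Benjamini-Hochberg adjusted p = 0.016). It fell by 6.58 in SW480-gRNA-B-all (SE 0.93, edgeR adjusted p = 0.015). LGR5 passed the filter on low counts only through SW480, so that a difference was built into its being tested. The call in SW480-B was lost when any of the SW480-B libraries was left out, with an edgeR adjusted p of up to 0.16. The call in SW480-gRNA-B-all was lost without SW480 replicate 2 or without any of the SW480-gRNA-B-all libraries (adjusted p up to 0.08) and with the like pair of libraries summed (adjusted p = 0.076). On the opposite strand LGR5 overlaps TSPAN8, which encodes a tetraspanin of the cell membrane, in the annotation used here. TSPAN8 had 399 counts in SW480, 415 in SW480-B and 3 in SW480-gRNA-B-all, so its level in SW480-B was high in the line where LGR5 was at 3 counts. The strand setting of the counting is not given in the sources used here.

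RNF43, a membrane-bound ubiquitin ligase that removes WNT receptors (ENSG00000108375, chr17:56431037-56494956, minus strand), was at 135, 162 and 219 CPM in SW480. It was at 135, 180.2 and 209 CPM in SW480-B and at 70.5, 137 and 146 CPM in SW480-gRNA-B-all. The lines overlapped, and the lowest library was replicate 1 of SW480-gRNA-B-all. The log2 difference was 0.06 (SE 0.27, edgeR adjusted p = 0.94) for SW480-B against SW480 and -0.55 (SE 0.31, adjusted p = 0.29) for SW480-gRNA-B-all against SW480.

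ZNRF3, the related ligase with the same receptors as targets (ENSG00000183579, chr22:29279560-29453476, plus strand), was at 210.3, 197 and 157 CPM in SW480. It was at 148, 129.5 and 111 CPM in SW480-B and at 55.2, 80.4 and 78.2 CPM in SW480-gRNA-B-all. The 3 lines did not overlap, and their means were 188 ± 27.6, 129 ± 18.8 and 71.3 ± 13.9 CPM (SD, n = 3). ZNRF3 fell by 1.41 on the log2 scale between SW480 and SW480-gRNA-B-all (SE 0.21, edgeR adjusted p = 0.016). This call was lost without SW480 replicate 2 or any SW480-gRNA-B-all library (adjusted p up to 0.082) and with the like pair summed (adjusted p = 0.077). In SW480-B the log2 difference from SW480 was -0.51 (SE 0.22, adjusted p = 0.32). Between SW480-gRNA-B-all and SW480-B it was -0.86 (SE 0.20, adjusted p = 0.035), under the 2-fold size set for a call, and the adjusted p was 0.11 with the pair summed.

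ASCL2, a basic helix-loop-helix factor that maintains the fate of crypt base stem cells (ENSG00000183734, chr11:2289728-2291818, minus strand), was at 61.5, 44.6 and 54.5 CPM in SW480. It was at 24.1, 22.7 and 28.8 CPM in SW480-B and at 3.22, 5.37 and 4.51 CPM in SW480-gRNA-B-all. No library of a line reached the range of another line, and the replicates of a line lay close together, with the highest SW480 library at 1.38 times the lowest. The means were 53.6 ± 8.49, 25.2 ± 3.21 and 4.37 ± 1.09 CPM (SD, n = 3).

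ASCL2 fell by 3.62 on the log2 scale in SW480-gRNA-B-all relative to SW480 (SE 0.26, edgeR adjusted p = 0.0047), or 12.3-fold. Against SW480-B it fell by 2.53 (SE 0.25, adjusted p = 0.0017), or 5.78-fold. Both calls held in each of the 6 fits that left out 1 library and with the like pair summed (adjusted p = 0.036 against SW480). ASCL2 was the only one of the 10 genes of which this was true against SW480. The log2 difference between SW480-B and SW480 was -1.05 (SE 0.23, edgeR adjusted p = 0.078), which did not pass, and fitting the replicate number as a block left it at -1.05, with an adjusted p of 0.054. It passed with DESeq2, without a filter on low counts and with all 9 libraries in 1 fit, where the lowest adjusted p was 0.0055.

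PROX1, the homeobox factor (ENSG00000117707, chr1:214156524-214214853, plus strand), was at 380.3, 262 and 79.9 CPM in SW480. It was at 75.1, 40.3 and 27.3 CPM in SW480-B and at 6.44, 3.87 and 3.74 CPM in SW480-gRNA-B-all. The 3 lines did not overlap, but the lowest SW480 library and the highest SW480-B library were close. The means were 241 ± 151, 47.6 ± 24.7 and 4.68 ± 1.52 CPM (SD, n = 3).

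PROX1 fell by 5.69 on the log2 scale from SW480 to SW480-gRNA-B-all (SE 0.65, edgeR adjusted p = 0.0088), or 51.6-fold. The call was lost without SW480 replicate 2, SW480-gRNA-B-all replicate 2 or SW480-gRNA-B-all replicate 3 (adjusted p up to 0.055) and, narrowly, with the like pair summed (adjusted p = 0.0502). Against SW480-B, PROX1 fell by 3.35 (SE 0.42, edgeR adjusted p = 0.0037), or 10.2-fold. This call held in each of the 6 fits without 1 library and with the pair summed (adjusted p = 0.018). For SW480-B against SW480 the log2 difference was -2.30 (SE 0.58, edgeR adjusted p = 0.12). It passed when the replicate number was fitted as a block (-2.16, adjusted p = 0.017) and without SW480 replicate 3 (adjusted p = 0.0084).

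PROX1-AS1, the antisense transcript that overlaps PROX1, was at 19.3, 9.13 and 4.84 CPM in SW480, 4.48, 2.89 and 2.62 CPM in SW480-B and 0.406, 0.234 and 0.234 CPM in SW480-gRNA-B-all. The order of the lines was that of PROX1. In SW480-gRNA-B-all it fell by 5.24 on the log2 scale against SW480 (SE 0.64, edgeR adjusted p = 0.011, or 0.062 with the like pair summed) and its log2 difference from SW480-B was -3.50 (SE 0.43, adjusted p = 0.0035). With 12, 7 and 7 counts in SW480-gRNA-B-all, PROX1-AS1 passed the filter on low counts only through the line compared with it. A difference was therefore built into its being tested in both comparisons. Without the strand setting, reads of the sense and antisense genes cannot be told apart.

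SOX9, a high-mobility-group factor of crypt progenitors and Paneth cells (ENSG00000125398, chr17:70117161-70122557, plus strand), was at 212, 262 and 273 CPM in SW480. It was at 281, 335 and 269.6 CPM in SW480-B and at 212, 251 and 251 CPM in SW480-gRNA-B-all. The lines overlapped and the log2 differences were between -0.31 and 0.28, with an edgeR adjusted p of 0.3 or more. SOX9 had the narrowest range of the 7 genes tested, and its highest SW480 library was 1.28 times the lowest.

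CD44, a hyaluronan receptor used to sort tumour-initiating cells (ENSG00000026508, chr11:35160429-35253949, plus strand), was at 48.7, 183 and 272 CPM in SW480. It was at 188, 288 and 296 CPM in SW480-B and at 120.2, 100.3 and 91.8 CPM in SW480-gRNA-B-all. The SW480 libraries enclosed those of SW480-gRNA-B-all, whereas each SW480-B library was above each SW480-gRNA-B-all library. CD44 fell by 1.31 on the log2 scale from SW480-B to SW480-gRNA-B-all (SE 0.22, edgeR adjusted p = 0.01), or 2.48-fold. The call was lost without SW480-gRNA-B-all replicate 2 or 3 (adjusted p up to 0.06), with the pair summed (adjusted p = 0.057) and with all 9 libraries in 1 fit (adjusted p = 0.17). Against SW480 the log2 difference was -0.70 for the SW480-gRNA-B-all cells (SE 0.54, adjusted p = 0.42) and 0.65 for the SW480-B cells (SE 0.53, adjusted p = 0.59). Without SW480 replicate 1, the first of these was -1.12 with an edgeR adjusted p of 0.033.

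**Figure D2:**
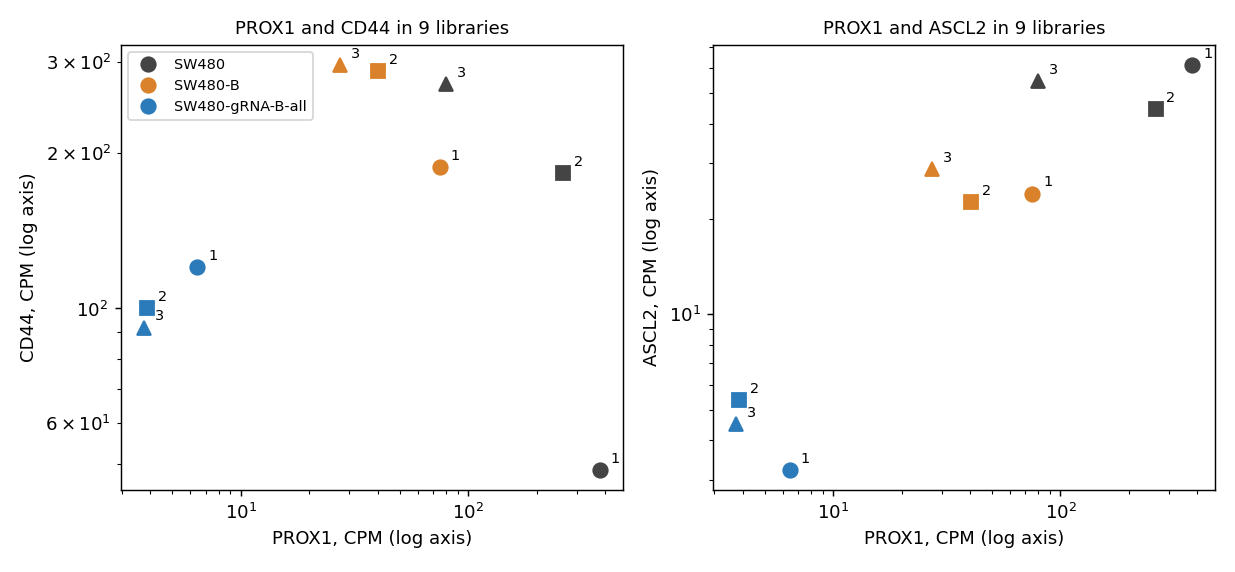
CD44 (left) and ASCL2 (right) against PROX1 in the 9 libraries, in CPM on log axes, with colours for the lines and numbers and symbols for the replicates. SW480 replicate 1 has the highest PROX1 (380.3 CPM) and the lowest CD44 (48.7 CPM) of all libraries, and the ASCL2 levels of the lines stay apart although the PROX1 levels within SW480 span 4.76-fold.

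The spread within the parental line differed between the genes, as the plot of CD44 and ASCL2 against PROX1 shows. The highest SW480 library was 6.51 times the lowest for LGR5, 5.6 times for CD44 and 4.76 times for PROX1. The same ratio was 1.62 for RNF43, 1.38 for ASCL2, 1.34 for ZNRF3 and 1.28 for SOX9. PROX1 and LGR5 were highest in SW480 replicate 1 and lowest in replicate 3, as was BASP1, while CD44 was lowest in replicate 1 and highest in replicate 3. The part of cell state or handling in this spread was not tested.

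The remaining 3 genes did not pass the filter on low counts, and none of them was called in the fits without that filter or with DESeq2. SMOC2, a secreted calcium-binding matrix protein of crypt stem cells (ENSG00000112562, chr6:168841831-169073984, plus strand), had 8, 7 and 1 counts in SW480, 0 in each SW480-B library and 6, 2 and 3 counts in SW480-gRNA-B-all. Set against 3 counts over the whole SW480-B line, the SMOC2 ratio was 5.09 for SW480 and 3.54 for SW480-gRNA-B-all. These ratios leave out the counting error of the higher line, so they are not lower bounds. The SMOC2 level of SW480 was 1.44 times that of SW480-gRNA-B-all (exact 95% counting interval 0.627 to 3.43). OLFM4, a secreted glycoprotein that marks human crypt stem cells (ENSG00000102837, chr13:53602948-53626192, plus strand), had 1, 2 and 1 counts in SW480 and 0 in every other library. PROM1, the membrane glycoprotein CD133 used to sort tumour-initiating cells (ENSG00000007062, chr4:15964699-16086001, minus strand), had 2, 9 and 1 counts in SW480, 2, 0 and 1 in SW480-B and 4, 0 and 0 in SW480-gRNA-B-all. These 3 genes were therefore within a few counts of the detection limit, and PROM1 in SW480 was 3.82 times its level in SW480-B (exact 95% counting interval 1.03 to 21.1) and 2.97 times that in SW480-gRNA-B-all (0.9 to 12.6).

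Levels of different genes can be compared only per length, as CPM per kilobase of exon (RPKM). In SW480 the order was SOX9 at 63.3 ± 8.19 RPKM (SD, n = 3), ASCL2 at 36.1 ± 5.72, RNF43 at 27.1 ± 6.77, PROX1 at 27 ± 17, ZNRF3 at 27 ± 3.94, CD44 at 16.8 ± 11.3 and LGR5 at 1.71 ± 1.21 RPKM. The ranges of mean ± SD of ASCL2, RNF43, PROX1 and ZNRF3 overlapped one another, as did those of RNF43, PROX1, ZNRF3 and CD44. In SW480-B the order was SOX9 at 75.2 ± 8.91 RPKM, RNF43 at 27.6 ± 5.92, CD44 at 25.8 ± 6.05, ZNRF3 at 18.5 ± 2.69, ASCL2 at 17 ± 2.16, PROX1 at 5.35 ± 2.78 and LGR5 at 0.00679 ± 0.00677 RPKM. Here the range of mean ± SD of each gene from RNF43 to ZNRF3 overlapped that of the next in this order. In SW480-gRNA-B-all SOX9 was at 60.5 ± 5.67 RPKM, RNF43 at 18.6 ± 6.54, CD44 at 10.4 ± 1.46, ZNRF3 at 10.2 ± 2, ASCL2 at 2.94 ± 0.731, PROX1 at 0.526 ± 0.171 and LGR5 at 0.0172 ± 0.0136 RPKM. CD44 and ZNRF3 did not differ beyond their spread in this line, whereas ASCL2 and PROX1, which lay with ZNRF3 in the parental line, came below it.

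Counted over all 10 genes, of which 7 were tested, 4 (ASCL2, LGR5, PROX1 and ZNRF3) were called lower when SW480-gRNA-B-all was compared with SW480. Of all 16100 genes tested in this comparison 6.55% were called, 4.66% lower and 1.89% higher. Only ASCL2 stayed called with the like pair of libraries summed. In SW480-B against SW480, 1 of the 10 (LGR5) was called lower, again with 7 tested, beside 1.34% called of 16106 genes (1.25% lower and 0.0931% higher). LGR5, counted in both comparisons with SW480, passed the filter only through SW480, so that a difference was built into its being tested. This comparison gave 2 called genes, LGR5 and PROX1, when the replicate number was fitted as a block, beside 1.98% of all genes. In SW480-gRNA-B-all against SW480-B, 3 of the 10 (ASCL2, CD44 and PROX1) were called lower, with 6 tested since LGR5 did not pass the filter, beside 6.68% called of 15846 genes (4.37% lower and 2.31% higher). None of the 10 genes was called higher in any of these 3 comparisons. The comparisons against SW480 share its 3 libraries. Since the 10 genes were chosen with earlier results of these data known, the shares over all genes are a background and not a test.

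**Figure D3:**
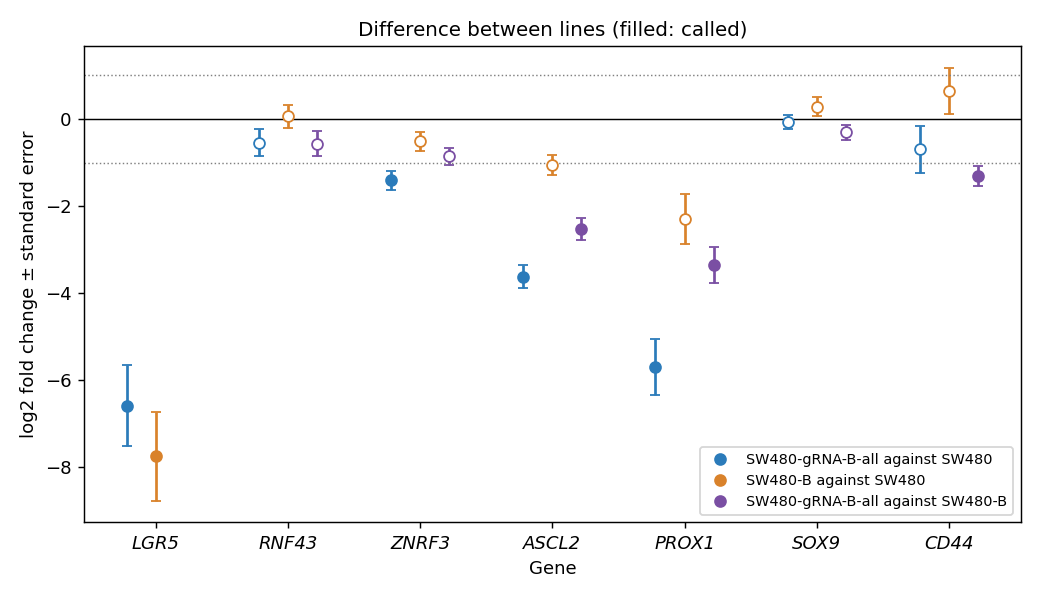
Difference between lines for the 7 genes that passed the filter on low counts, as log2 fold change of the first-named line minus the second, with error bars of 1 standard error (edgeR, 3 libraries per line). Filled symbols are called (adjusted p under 0.05 and more than 2-fold, dotted lines), and LGR5 was not tested between the BASP1-expressing lines. ASCL2 and PROX1 lie at -3.62 and -5.69 for SW480-gRNA-B-all against SW480, while SOX9 lies between -0.31 and 0.28 in all comparisons.

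Among 18 other genes of crypt base stem cells, 17 were tested. From SW480 to SW480-gRNA-B-all, 7 fell and 1 rose, with a median log2 difference of -1.08 beside -0.054 for all genes, of which 4.66% were called lower and 1.89% higher. The transcription factors SP5, SOX4 and MYB and the cell cycle kinase CDK6 fell, with log2 fold changes of -2.91 (SE 0.15, edgeR adjusted p = 0.0028), -3.29 (SE 0.35, adjusted p = 0.0078), -3.56 (SE 0.48, adjusted p = 0.014) and -3.05 (SE 0.49, adjusted p = 0.019), in this order. SP5, a β-catenin target that itself represses WNT target genes, was at 149.7, 131 and 137 CPM in SW480, 82, 68.6 and 87 CPM in SW480-B and 18.4, 18 and 19.5 CPM in SW480-gRNA-B-all. Its 3 lines did not overlap and its replicates were close to each other. The remaining 3 were the receptor TNFRSF19, the WNT feedback inhibitor AXIN2 and the ephrin receptor EPHB3, all with a smaller change. EPHB2, an ephrin receptor that positions cells along the crypt, rose by 1.77 (SE 0.37, edgeR adjusted p = 0.036), from 10.7, 18.6 and 30.3 CPM in SW480 to 56.5, 72.4 and 75.2 CPM in SW480-gRNA-B-all. With the like pair summed, 2 of these 8 genes (SOX4 and SP5) stayed called, and the adjusted p was 0.063 for MYB, 0.082 for TNFRSF19, 0.09 for CDK6, 0.092 for AXIN2 and 0.13 for EPHB2 and for EPHB3. The SP5 call held in each of the 6 fits without 1 library, SOX4 in 4, MYB in 3, CDK6, TNFRSF19, AXIN2 and EPHB2 in 2 and EPHB3 in 1. Without SW480 replicate 2, 1 gene of the list (SP5) was called, and without SW480 replicate 3, 12 were.

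In SW480-B against SW480, MYB and CDK6 fell, with log2 fold changes of -4.05 (SE 0.48, edgeR adjusted p = 0.012) and -2.48 (SE 0.47, adjusted p = 0.0499). The median of the 17 genes was -0.15, beside -0.004 for all genes, of which 1.34% were called. The MYB call held in 4 of the 6 fits without 1 library and was lost without SW480-B replicate 1 or 2, and the CDK6 call held in 1, that without SW480 replicate 3, where 5 genes of the list were called. SP5 was lower in each SW480-B library than in each SW480 library, with a log2 difference of -0.77 (SE 0.20, adjusted p = 0.13). In SW480-gRNA-B-all against SW480-B, 5 of the 17 fell and 1 rose (median -0.53), beside 4.37% called lower and 2.31% higher of all genes. SP5, TNFRSF19, SOX4 and AXIN2 fell, with log2 fold changes of -2.09 (SE 0.17, edgeR adjusted p = 0.00099), -2.13 (SE 0.25, adjusted p = 0.0032), -1.76 (SE 0.27, adjusted p = 0.0074) and -1.71 (SE 0.28, adjusted p = 0.01), in this order. All of these remained called with the like pair summed, while ETS2, which also fell, and the secreted IGFBP4, which rose, did not (adjusted p = 0.098 and 0.14). AXIN2 was at 488 to 633 CPM in SW480 and 523 to 575 CPM in SW480-B but at 99, 202 and 202 CPM in SW480-gRNA-B-all.

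Of 11 genes of the R-spondin and WNT receptor system, 7 were tested. LGR6, a relative of LGR5 with the same ligands, was the only one called by edgeR. It was at 20.0, 36.3 and 25.9 CPM in SW480, 38.4, 94.6 and 44.2 CPM in SW480-B and 12.5, 9.11 and 9.48 CPM in SW480-gRNA-B-all. The SW480-B libraries were the highest, unlike for LGR5. LGR6 fell by 2.51 on the log2 scale from SW480-B to SW480-gRNA-B-all (SE 0.35, edgeR adjusted p = 0.0058). Its log2 difference between SW480-gRNA-B-all and SW480 was -1.41 (SE 0.28, edgeR adjusted p = 0.032, or 0.14 with the like pair summed). Against SW480, the list median was -0.33 for SW480-B and -0.68 for SW480-gRNA-B-all. In SW480-B against SW480, 4 of the 7 differences were below 0, among them LGR4 at -1.73 (SE 0.40, edgeR adjusted p = 0.093). There edgeR called 0, with 2 at an unadjusted p under 0.05 and 1 called by DESeq2. In each of the other comparisons, 3 had an unadjusted p under 0.05 and DESeq2 called 1.

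No gene was called by edgeR among 4 tested reserve stem cell genes (of 5 listed) or among 11 tested markers used for colon cancer stem cells other than CD44 and PROM1 (of 16 listed). Between SW480-gRNA-B-all and SW480, 2 of the reserve genes and 2 of the other markers had an unadjusted p under 0.05, and DESeq2 called 0 and 1. In SW480-B against SW480 these numbers were 2 and 3, and DESeq2 called 1 and 0. The medians of the cancer stem cell markers were 0.20 and -0.16 in these comparisons. In SW480-gRNA-B-all against SW480-B, 1 reserve gene and 2 markers had an unadjusted p under 0.05, and DESeq2 called 0 and 1.

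Genes of fetal-like or regenerating epithelium moved in both directions in SW480-gRNA-B-all. Of 9 tested against SW480, KRT7 and CCN1 rose and CLU fell, beside 1.89% called higher and 4.66% lower of all genes. The list median was 0.85, beside -0.054 for all genes. KRT7, a keratin of simple epithelia, was at 5.78, 6.75 and 5.97 CPM in SW480, 3.25, 2 and 3.46 CPM in SW480-B and 24.9, 32.8 and 33.3 CPM in SW480-gRNA-B-all. It rose by 2.29 on the log2 scale against SW480 (SE 0.21, edgeR adjusted p = 0.0054) and by 3.38 against SW480-B (SE 0.28, adjusted p = 0.00099). CCN1, a secreted matrix protein and YAP target, rose by 3.26 (SE 0.73, adjusted p = 0.043, or 0.13 with the like pair summed) and by 2.47 (SE 0.31, adjusted p = 0.0038). CLU, the chaperone clusterin that marks revival stem cells, fell by 1.26 against SW480 (SE 0.23, edgeR adjusted p = 0.026), and its log2 fold change against SW480-B was -1.25 (SE 0.28, adjusted p = 0.029). Both CLU calls were lost with the pair summed (adjusted p = 0.099 and 0.087). Between the BASP1-expressing lines ANKRD1 also rose and MSLN fell, so that 3 of 10 tested genes rose and 2 fell. Of all genes in this comparison, 2.31% were called higher and 4.37% lower, and the list median was 0.00 beside -0.004 for all genes. The ANKRD1 call held in 1 of the 6 fits without 1 library and was lost with the pair summed (adjusted p = 0.14), while the MSLN call held in 5 and with the pair summed. In SW480-B against SW480 edgeR called 0 of 10, with 3 at an unadjusted p under 0.05 and 2 called by DESeq2. The list median there was 0.75, beside -0.004 for all genes.

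Most genes of the differentiated lineages did not pass the filter on low counts. Of 16 absorptive genes, 1 could be tested between SW480-gRNA-B-all and SW480 and 2 between SW480-B and SW480. VIL1 fell in both, with log2 fold changes of -4.44 (SE 0.70, edgeR adjusted p = 0.019, or 0.079 with the like pair summed) and -2.94 (SE 0.44, adjusted p = 0.025). Of 16 secretory genes 6 were tested in each of these comparisons, and DEFA5 and NEUROD1 were called lower in both. In SW480-gRNA-B-all 5 of the 6 had a log2 difference below 0, and the other, CHGB, was at 1.32 (SE 0.40, edgeR adjusted p = 0.088). In SW480-B 4 of the 6 were below 0, while CHGB was at 0.60 (SE 0.45, adjusted p = 0.56) and LYZ at 1.53 (SE 0.52, adjusted p = 0.22). DEFA5 and NEUROD1 passed the filter only through SW480, so that a difference was built into their being tested, and the NEUROD1 call in SW480-gRNA-B-all was lost with the like pair summed (adjusted p = 0.082). In SW480-B the calls of VIL1 and NEUROD1 each held in 2 of the 6 fits without 1 library, and that of DEFA5 in 4. DEFA5, a Paneth cell defensin, was at 9.4, 13.4 and 6.62 CPM in SW480, at 0 in each SW480-B library and at 0, 0.0334 and 0.0334 CPM in SW480-gRNA-B-all. Set against 3 counts over the SW480-B line, the ratio for DEFA5 in SW480 was 269, without the counting error of SW480. NEUROD1, a factor of enteroendocrine cells, was at 1.93, 0.861 and 0.473 CPM in SW480, with 1 count in SW480-B and 0 in SW480-gRNA-B-all.

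**Figure D4:**
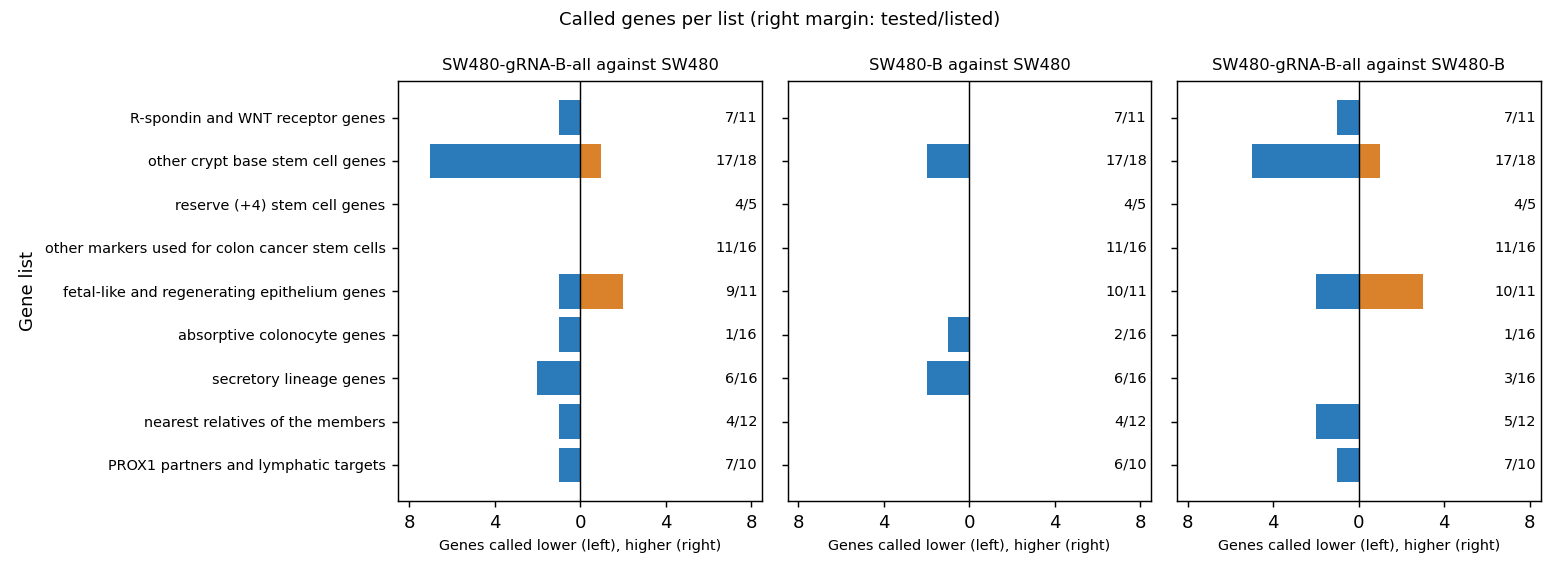
Number of genes called lower (bars to the left) and higher (bars to the right) in each gene list and comparison, with the number tested and listed at the right margin. The list of other crypt base stem cell genes has 7 lower and 1 higher in SW480-gRNA-B-all against SW480, 2 lower in SW480-B against SW480 and 5 lower and 1 higher between the BASP1-expressing lines, and the lists of reserve genes and of other cancer stem cell markers have no bar.

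Of 12 relatives of the 10 genes, LGR6 and SOX8 were called, the latter in SW480-gRNA-B-all against SW480-B, where it was at 1.74, 0.891 and 0.389 CPM in SW480-B and at 0.0339, 0.0668 and 0 CPM in SW480-gRNA-B-all. SOX8 passed the filter there only through SW480-B, so that this difference too was built into its being tested. Of 10 genes listed as partners or lymphatic targets of PROX1, 7 could be tested between SW480-gRNA-B-all and SW480, and PROX1-AS1 was the only one called, in this comparison and against SW480-B. PROX1-AS1 passed the filter in both only through the other line, so that a difference was built into its being tested. The median of the 7 was 0.05 against SW480.

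The genes whose pattern over the 9 libraries was most like that of PROX1, among 14753 genes with at least 1 CPM in a line, were ADAMTS19 (Pearson r of log2 values 0.997), PROX1-AS1 (0.993), RUNX3 (0.989), INPP5D (0.988) and TARBP1 (0.986). ADAMTS19, a secreted metalloprotease, had means of 72.9 ± 66.5, 9.31 ± 4.5 and 0.124 ± 0.215 CPM in the parental, the SW480-B and the SW480-gRNA-B-all cells (SD, n = 3). RUNX3, a runt-domain transcription factor, had means of 144 ± 54.3, 61.5 ± 19.8 and 26.4 ± 1.93 CPM in the same order. For LGR5 they included AKR1C4 (0.998), RCSD1 (0.998), CD93 (0.998) and CHST8 (0.997), these 4 with a mean of 0.135 CPM or less in both BASP1-expressing lines. The points share their line, and these correlations are a description without a test.

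Within 2 Mb of PROX1, 19 other genes were tested. Against SW480, their median log2 difference was -0.49 for SW480-B and -0.47 for SW480-gRNA-B-all. Over all genes tested the medians were -0.004 and -0.054, and edgeR called 1.34% and 6.55%, in the same order. edgeR called none of the 19 genes in either comparison, with 6 at an unadjusted p under 0.05 in each, and DESeq2 called 2 and 1. In the same order of lines, the median of 15 genes within 2 Mb of LGR5 was -0.32 and -0.28, and TSPAN8 was the only one called, in SW480-gRNA-B-all. TSPAN8 passed the filter there only through SW480, so that a difference was built into its being tested. Around ASCL2 the medians were 0.27 (79 genes) and 0.21 (78 genes), with 0 called by edgeR in SW480-B (19 at an unadjusted p under 0.05, 4 called by DESeq2) and 7 lower and 3 higher in SW480-gRNA-B-all. Around ZNRF3 the medians were -0.05 (41 genes) and 0.16 (42 genes), with 1 called lower in SW480-B and 2 lower and 1 higher in SW480-gRNA-B-all. Copy number was not measured.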

How the data were processed

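Total RNA of the 3 lines was isolated in triplicate and sequenced as stranded poly(A) libraries. The labels do not say that replicates are separate cultures, so p-values measure the spread between these samples, which may be technical. Reads were mapped to GRCh37 by the authors, who deposited 1 file of raw counts per Ensembl gene for each library. How strand was treated in counting, and with which program and version, is not given in the sources used here. Each file lists 63677 genes and 5 lines that name no gene (among them fragments outside genes, at 5.22% to 9.93%, and ambiguous fragments, at 3.09% to 3.44%), which stayed out of all totals. Symbols were matched for 55665 identifiers, with 99.4% of the counts. Deposited alignment metrics were not used.

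The counts were tested as deposited with edgeR 4.0.16 in R 4.3.3, each pair of lines over its 6 libraries and all genes that passed filterByExpr (least count 10, least total 15), with TMM factors and a robust quasi-likelihood fit. A gene was called, and is said to have risen or fallen, where it changed more than 2-fold with a Benjamini-Hochberg adjusted p under 0.05. CPM used TMM factors over the 9 libraries, and RPKM the union of exons of GENCODE on GRCh37, which also gave the coordinates of genes. Folds of genes with few counts are ratios of pooled counts with exact 95% intervals. The method was tested on simulated data.

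Alternatives were RLE size factors, no filter, a filter of 1 CPM in 3 libraries, a joint fit of the 9 libraries, a block for the replicate number, DESeq2 1.42.0, no threshold on size, each library left out, and the sum of the like libraries (SW480-gRNA-B-all replicates 2 and 3). Same-numbered libraries of SW480-B and SW480 deviated together in every pair (correlations 0.312, 0.444 and 0.407). In the other comparisons they did not in every pair (0.329, -0.0135 and 0.323 for SW480-gRNA-B-all and SW480, 0.29, -0.113 and 0.318 for both BASP1-expressing lines). The main fits were unpaired in all comparisons, SW480-B against SW480 included. Calls within the gene lists are given from unpaired fits only.

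The 10 genes and the gene lists were chosen with earlier results of these data known. Named beside them are BASP1, up to 4 called genes per list, comparison and direction by adjusted p, the 5 genes most like PROX1 and LGR5 (Pearson r of log2(CPM + 0.5)), 1 of which is not reported here, and genes that overlap one of the 10. Other genes called in a list, and the neighbours of the 10 genes, are named or counted in addition.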

Additional observations from a re-analysis of the deposited data

Results flagged for a closer look

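For 4 of the 10 genes the test of SW480-gRNA-B-all against SW480-B itself gave an adjusted p under 0.05, so that their change from SW480 differed between these lines, and 3 of them also passed the 2-fold size. Of all 15846 genes tested there, 6.68% passed both thresholds, and the share under the adjusted p alone was not counted. The difference was -3.35 on the log2 scale for PROX1 (SE 0.42, edgeR adjusted p = 0.0037), -2.53 for ASCL2 (SE 0.25, adjusted p = 0.0017), -1.31 for CD44 (SE 0.22, adjusted p = 0.01) and -0.86 for ZNRF3 (SE 0.20, adjusted p = 0.035), which was under that size. For each of them all 3 libraries of SW480-gRNA-B-all were below all 3 of SW480-B. When SW480-gRNA-B-all replicates 2 and 3 were summed, the adjusted p was 0.018 for PROX1 and 0.0094 or less for ASCL2, and it was above the threshold for CD44 (0.057) and ZNRF3 (0.11). The lines differ in the vector, the clone and the selection as well as in how BASP1 is expressed, and these cannot be told apart.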

How the results depend on the processing

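Of the 10 genes, 4 were called in SW480-gRNA-B-all against SW480 under RLE size factors, either other filter, all 9 libraries in 1 fit, the replicate block and DESeq2, 1 (ASCL2) with SW480-gRNA-B-all replicates 2 and 3 summed, and 1 to 5 when a library was left out. For SW480-B against SW480, 1 was called, 2 without a filter on low counts (ASCL2 and LGR5), 2 with all 9 libraries in 1 fit (ASCL2 and LGR5), 3 with DESeq2 (ASCL2, LGR5 and PROX1), and 0 to 2 when a library was left out. The 0 arose without any of the SW480-B libraries, where edgeR gave 3 or 4 of the 7 tested genes an unadjusted p under 0.05. The replicate block, the pairing by number, gave 2 called genes there (LGR5 and PROX1) and changed no other count of the 10. For SW480-gRNA-B-all against SW480-B, 2 to 3 were called when a library was left out. Single differences near 0 turned direction in 4 fits: RNF43 in SW480-B against SW480 (-0.09 without SW480 replicate 1, -0.10 without SW480-B replicate 3, within -0.10 to 0.27 over the libraries left out) and SOX9 in SW480-gRNA-B-all against SW480 (0.02 without SW480 replicate 3, 0.01 without SW480-gRNA-B-all replicate 1, within -0.16 to 0.02). Of all single results and settings, 221 kept direction and side of the threshold, 21 lost the call and 7 gained it. The cause was not tested.

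The calls over all genes in SW480-gRNA-B-all against SW480 were 1055, 8 without SW480 replicate 2, 2659 without SW480 replicate 3, 76 to 178 without a SW480-gRNA-B-all library, 97 with the like pair summed and 2380 with DESeq2. Those in SW480-B against SW480 were 216, 735 without a filter, 452 with all 9 libraries, 319 with the block, 1096 with DESeq2, 143 with the filter of 1 CPM, 56 without SW480 replicate 2, 921 without SW480 replicate 3, 16 without SW480-B replicate 3 and 0 without SW480-B replicate 1 or 2 (1951 and 1676 genes at an unadjusted p under 0.05 by edgeR), so that the loss among the 10 genes came with that of nearly all calls. Those between the BASP1-expressing lines were 1059, 654 with all 9 libraries, 446 with the pair summed and 420 to 1548 when a library was left out. The recount of the crypt base list without single libraries was chosen after seeing the data.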
